A study of Mus musculus with 12 samples.

Results

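RNA sequencing libraries of BV2 cells, an immortalised mouse microglial line, were compared between high glucose with CD200Fc (HG+CD200Fc, 3 libraries) and normal glucose without it (NG, 3 libraries), which are 6 of the 12 libraries of the study. CD200Fc, the ligand CD200 fused to an antibody Fc part, was given at 50 ng/mL. The study's other groups were high glucose without CD200Fc (HG, 3 libraries), whose values are set beside the comparison, and normal glucose with CD200Fc (3 libraries). The comparison asks what still differed from the normal glucose baseline once cells in high glucose had received CD200Fc. Both glucose and CD200Fc differ between its groups, so the contributions of the 2 treatments cannot be told apart from it alone. How much glucose was used, and for how long, is not stated in the labels, and no group was a control for osmolarity or for the Fc part. The labels name BV2 as source and cell line, which was followed here, yet their treatment protocol deals with retinas dissected from mice and with GFP-positive cells obtained by sorting. Whether replicate libraries are separate cultures is not stated, so the p-values measure only how far these libraries spread, which may be technical.

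CD200 is a membrane protein of neurons, endothelium and other cells, and its receptor CD200R1 on microglia and macrophages recruits the adaptors Dok1 and Dok2, which restrain Ras and ERK signalling. Activated microglia run several separable programmes. Type I interferon signals through the kinases Jak1 and Tyk2 to a complex holding Stat2 and Irf9, which binds interferon response elements before antiviral genes, and NF-kB drives cytokines, chemokines and *Nos2*. Glucose itself is sensed through the Mlx-binding factors Mlxip and Mlxipl, which act on E-boxes of *Txnip* and *Arrdc4*.

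Promoter stretches of 5 genes show the letters that were searched in the promoters of the gene groups below. They were taken from the RefSeq promoter table (GRCm38.p6), which covers 250 bases before to 50 bases after each gene's start, and are written 5′ to 3′ on the gene's strand, with matches in capitals. *Ifit3* (chr19:34583324-34583485, plus strand, 3 matches) and *Igtp* (chr11:58199472-58199555, plus strand) carry the interferon response element core GAAANNGAA or its reverse complement. *Arrdc4* (chr7:68749376-68749481, minus strand) carries the E-box core CACGTG, *Mcm6* (chr1:128359706-128359865, minus strand) has 2 copies of the E2F-type motif TTTGGCGC, and *Cdc20* (chr4:118437344-118437446, minus strand) has 2 copies of CCAAT. *Ifit3* and *Igtp* stood near the NG level in HG+CD200Fc, *Arrdc4* stood above it, and *Mcm6* and *Cdc20* did not pass the test.
Ifit3: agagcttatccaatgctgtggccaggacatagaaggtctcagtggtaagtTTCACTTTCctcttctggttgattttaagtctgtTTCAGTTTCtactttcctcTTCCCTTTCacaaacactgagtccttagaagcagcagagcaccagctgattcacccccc
Igtp: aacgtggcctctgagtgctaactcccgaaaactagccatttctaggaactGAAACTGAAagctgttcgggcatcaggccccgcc
Arrdc4: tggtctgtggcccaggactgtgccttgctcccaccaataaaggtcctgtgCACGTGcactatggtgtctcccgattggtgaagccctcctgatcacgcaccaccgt
Mcm6: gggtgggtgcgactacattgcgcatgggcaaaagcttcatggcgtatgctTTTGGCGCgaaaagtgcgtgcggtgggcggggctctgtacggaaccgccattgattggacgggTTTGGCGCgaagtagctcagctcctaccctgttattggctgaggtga
Cdc20: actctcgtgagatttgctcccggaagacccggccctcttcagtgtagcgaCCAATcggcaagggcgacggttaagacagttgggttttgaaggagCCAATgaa

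Over the whole table of 32851 promoters, 8.56% held GAAANNGAA on either strand, against 29 of 51 promoters (56.9%) of the interferon-stimulated effector genes, of which 40 of 51 had a promoter in the table, and 3 of 20 (15%) of the interferon signalling factors. Among guanylate-binding proteins and immunity-related GTPases, 8 of 9 promoters (88.9%) held it, with 8 of 12 genes matched. CACGTG stood in 7.15% of all promoters and in 5 of 10 of the glucose-sensing genes. TTTCCCGC or TTTGGCGC stood in 1.56% of all promoters and in 11 of 40 (27.5%) of the S phase genes. CCAAT stood in 37.4% and in 30 of 38 (78.9%) of the G2 and mitosis genes. The windows of *Txnip*, *Irf7* and *Oasl2* hold no match to the letters searched for their lists. A match is a string of letters and not a shown binding site. Tested genes with the interferon letters were higher in HG+CD200Fc than in NG in 11.9% of 964 and lower in 14.9%, beside 11.9% and 12.2% of 10110 genes without them. In HG vs NG the same genes were higher in 21% and 13.7%. Genes with the E2F-type letters were lower in 13.6% of 361 in HG+CD200Fc vs NG, beside 12.4% of 10713 without them, and in 26.3% and 15.8% in HG vs NG.

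Of 19182 genes tested, 3903 (20.3%) differed between HG+CD200Fc and NG at an adjusted p under 0.05 in edgeR's quasi-likelihood test with Benjamini-Hochberg adjustment, 1834 higher (9.56%) and 2069 lower (10.8%). The shares of higher and lower genes are the background for every list count of this comparison below. Most of the differences were small. The median absolute log2 fold change of the genes that passed was 0.35, a fold of 1.27, and 151 genes were at least 2-fold higher and 56 at least 2-fold lower (1.08% together). The 3 libraries of each group did not overlap in 3792 of the genes that passed, and in 37.1% of all genes tested (17.7% higher, 19.4% lower). HG vs NG gave 4720 genes (24.6%), 2244 higher (11.7%) and 2476 lower (12.9%), of which 449 were at least 2-fold higher and 62 at least 2-fold lower (2.66% together). HG+CD200Fc vs HG gave 3408 genes (17.8%), 1815 higher (9.46%) and 1593 lower (8.3%), with 44 and 220 at least 2-fold (1.38% together). These 3 comparisons share libraries in pairs, so each one's values are given side by side and no overlap between them is used. The count depended on single libraries, with 2217 genes passing without NG replicate 1 and 2349 without HG+CD200Fc replicate 2. The share of higher genes among those that passed, 47.0%, was 58.6% with upper quartile scaling and 37.2% after removal of a trend on exon length and GC content. In HG vs NG that share, 47.5%, was 34.9% with the trend removed, and the higher genes numbered 1447 without NG replicate 1. Of 15372 genes in the authors' deposited table, 3995 passed for HG+CD200Fc vs NG, 1963 higher and 2032 lower. Among the 14513 genes matched by symbol, 3513 passed in the same direction in both, which is 95% of those that passed here and 92.2% of those in the authors' deposited table. The counts of the matched genes were identical in both deposited tables, so this compares fits of the same counts and is no independent evidence.

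**Figure D1:**
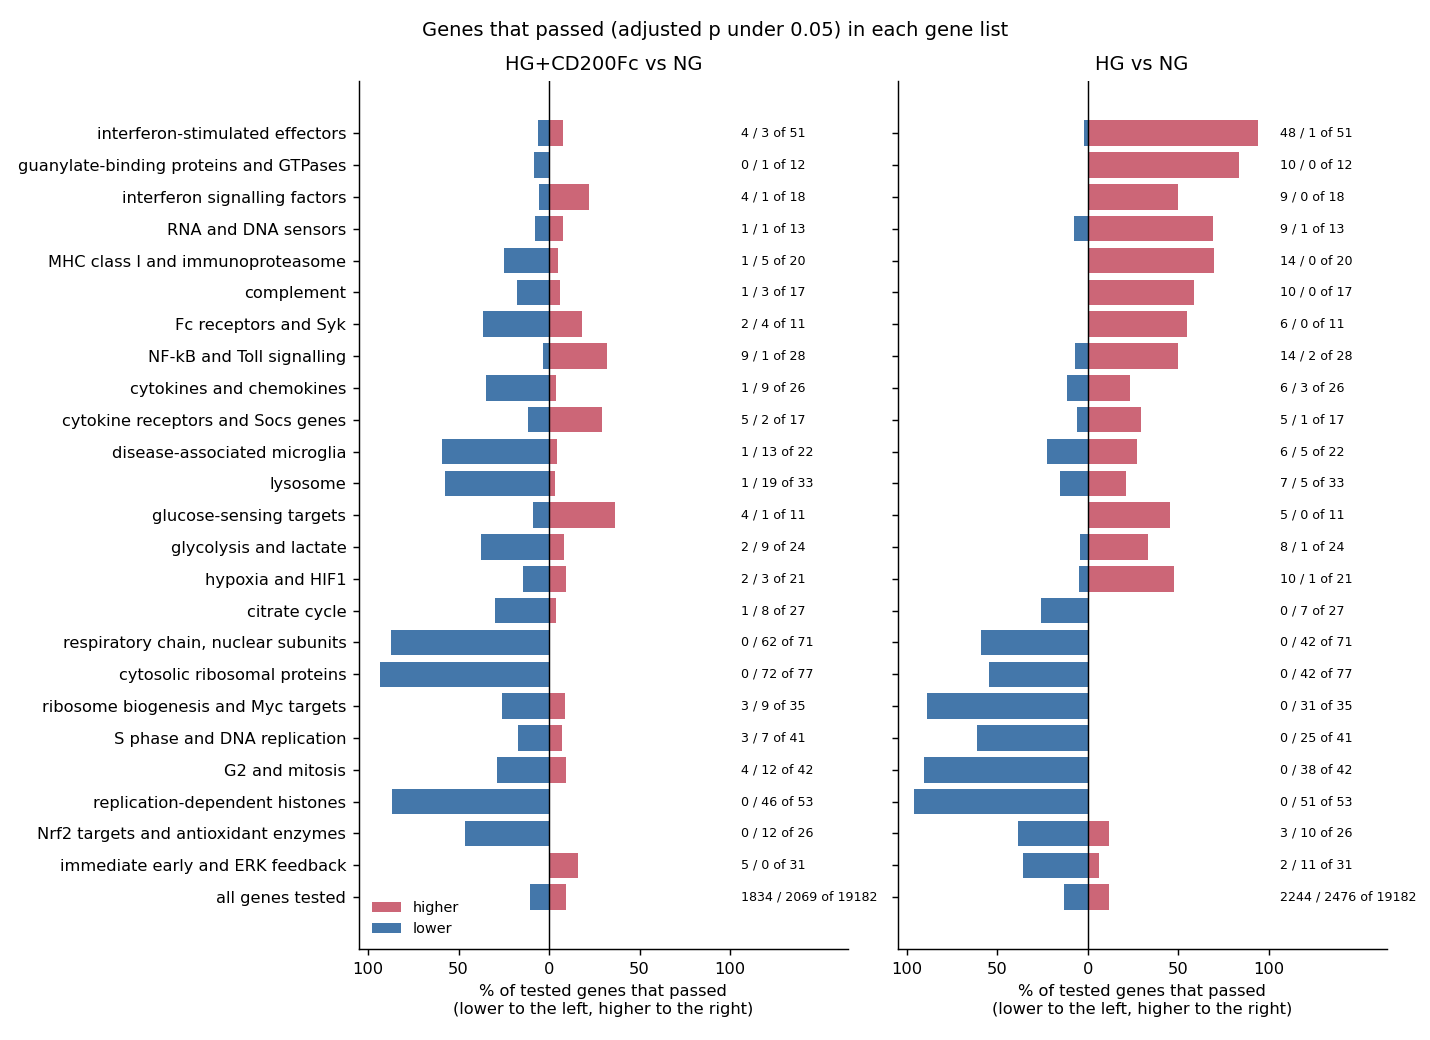
Bars give the percentage of tested genes in 24 gene lists, and in all genes tested, that were higher (right of 0) or lower (left of 0) at an adjusted p under 0.05, for HG+CD200Fc vs NG (left panel) and HG vs NG (right panel), with the counts higher / lower of tested printed beside each bar. The interferon-stimulated effectors had 4 higher and 3 lower of 51 in the left panel against 48 and 1 in the right, while the ribosomal protein, respiratory chain and histone lists had lower and 0 higher genes in both. Both panels use the same NG libraries.

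The 6 libraries held 2.145e+07 to 2.692e+07 counts each, and replicates differed by more than sampling noise. The defining genes of other cell types were near 0: over the 6 libraries *Snap25*, *Rgs5*, *Ncr1* and *Dcn* had 0 counts, and *Aqp4* and *Mog* had 1 each. The macrophage genes *Csf1r* (895 to 1020 CPM, which is counts scaled to the library total) and *Spi1* (526 to 552 CPM) were high in all 6, whereas *P2ry12* (0.653 to 2.6 CPM) and *Sall1* (1 count in all), genes of brain microglia in place, were low or absent. Counts in ribosomal RNA genes were 0.0996% to 0.122% in HG+CD200Fc and 0.0554% to 0.0571% in NG, and mitochondrial genes took 0.934% to 1.20% and 1.23% to 1.29%. In the HG libraries set beside them the ribosomal RNA share was 0.0728%, 1.53% and 0.0812%. HG replicate 2, with the highest share, also stood apart from its replicates. Its pairs had a chi-square per degree of freedom over genes of 41.1 and 28.7, beside 3.79 to 6.055 for the NG pairs. NG replicate 1 lay at 23.2 on the first principal component (19.4% of the variance), the other NG libraries at 6.01 and 14.4, and the HG+CD200Fc libraries between -8.11 and -3.54.

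The receptor gene of the added ligand did not pass the test. *Cd200r1*, which encodes the inhibitory receptor (ENSMUSG00000022667), stood at 12.7, 13.7 and 14.9 CPM in NG and at 12.7, 10.5 and 12.5 CPM in HG+CD200Fc. The groups overlapped, and the log2 fold change was -0.21 ± 0.131 (SE), with a 95% interval of -0.48 to 0.06 (edgeR adjusted p = 0.294). *Cd200* itself had 0 counts in all 12 libraries. Of 12 tested genes of CD200 receptor signalling, 0 were higher and 1 lower, the related receptor gene *Cd200r4*, at -0.34 ± 0.118 with overlapping groups (adjusted p = 0.0395), a call lost in 8 of 22 alternatives, among them upper quartile scaling, the length trend removed, and leaving out NG replicate 2 or 3 or any HG+CD200Fc replicate.

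Interferon-stimulated genes stood close to the NG level in HG+CD200Fc. Of 51 effectors tested, 4 were higher and 3 lower, beside 9.56% and 10.8% of all genes, with a median log2 fold change of -0.09. Single estimates ran from -0.834 to 0.39, with 35 below 0 and 16 above. In HG vs NG 48 of the same 51 were higher and 1 lower (median 0.83), and in HG+CD200Fc vs HG 0 were higher and 46 lower (median -0.80). *Ifit3*, an antiviral protein gene and bearer of the first promoter printed above, had 11.4, 10.9 and 9.63 CPM in NG, 31.9, 31.6 and 24.2 in HG, and 10.6, 10.6 and 11 in HG+CD200Fc. The HG+CD200Fc libraries lay inside the range of NG and below every HG library. The log2 fold change from NG was 0.01 ± 0.122, with a 95% interval of -0.24 to 0.26. *Oasl2*, of the oligoadenylate synthetase family, had 82.0, 82.6 and 93.9 CPM in NG, 212, 222 and 208 in HG, and 90.2, 75.5 and 82.8 in HG+CD200Fc, again overlapping NG (-0.06 ± 0.078, interval -0.22 to 0.10). *Irf7*, the transcription factor that amplifies the interferon response (ENSMUSG00000025498, chromosome 7, 141262706 to 141266481), had 70.0, 74.6 and 75.8 CPM in NG, 177, 163 and 159 in HG, and 76.1, 71.6 and 73.7 in HG+CD200Fc. Its log2 fold change from NG was 0.01 ± 0.064, with an interval of -0.125 to 0.14, beside 1.18 in HG vs NG. *Ifit3* and *Oasl2*, like *Gbp9* below, were chosen as examples after their values were seen, so they do not stand for the whole list. In bulk RNA, fewer cells expressing a gene and less RNA per cell cannot be told apart, here and below.

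The GTPases of interferon-induced cell defence showed the same arrangement. Of 12 guanylate-binding protein and GTPase genes, 0 were higher in HG+CD200Fc than in NG and 1 was lower, beside 10 higher and 0 lower in HG vs NG. *Igtp*, an immunity-related GTPase, had 8.98, 8.72 and 9.42 CPM in NG, 18.8, 16.3 and 15.7 in HG, and 8.07, 6.62 and 9.53 in HG+CD200Fc, with a log2 fold change from NG of -0.16 ± 0.134 (interval -0.44 to 0.11). *Gbp9* had 11.4, 14.5 and 12.5 CPM in NG, 24.6, 25.9 and 22.7 in HG, and 12.4, 12.9 and 11.8 in HG+CD200Fc (-0.05 ± 0.111, interval -0.28 to 0.18). Both genes overlapped NG and lay below every HG library. The gene that was lower is *Irgm1*, a regulator of the same GTPases (-0.27). Of 13 RNA and DNA sensor genes, 1 was higher, the endosomal DNA receptor *Tlr9* (0.51), and 1 lower, the endosomal RNA receptor *Tlr7* (-0.31), whereas in HG vs NG 9 were higher and 1 lower. The call for *Tlr7* was lost without NG replicate 1 or 3 or HG+CD200Fc replicate 2 or 3.

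**Figure D2:**
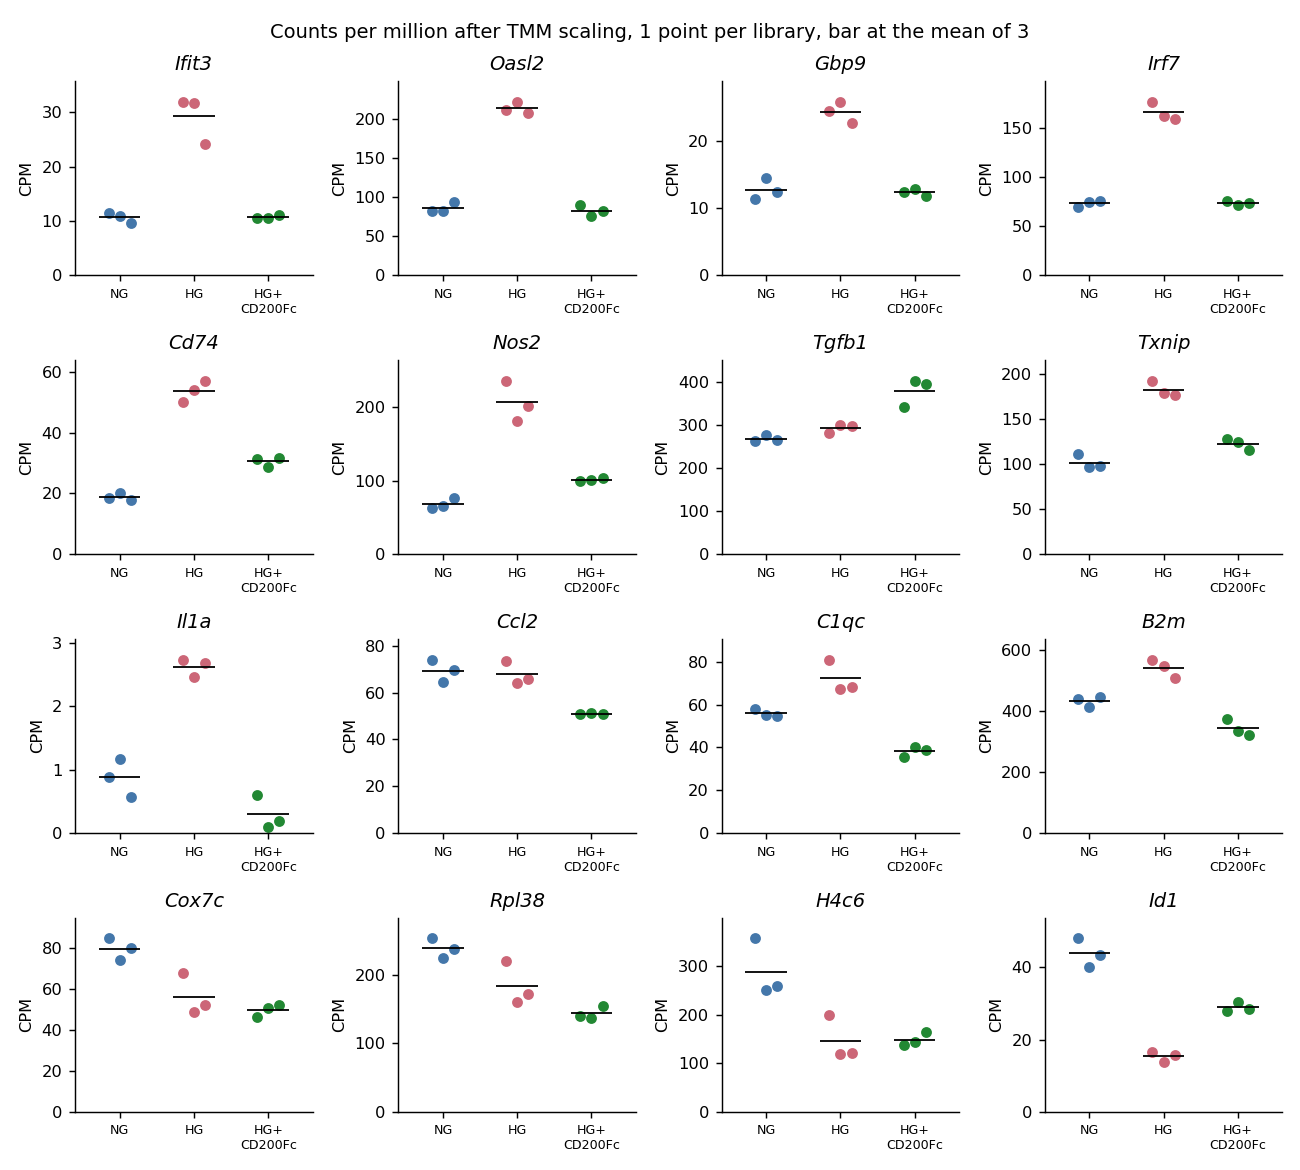
Each panel plots the CPM of 1 gene after TMM scaling, with 1 point per library and a bar at the mean of the 3 NG, HG or HG+CD200Fc libraries. In the top row the HG+CD200Fc points of *Ifit3*, *Oasl2*, *Gbp9* and *Irf7* overlap NG, in the second row those of *Cd74*, *Nos2*, *Tgfb1* and *Txnip* lie above every NG point, and in the rows below they lie under every NG point except for *Il1a*, where the groups overlap.

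A few interferon genes stayed above NG. Among 18 interferon signalling factors, 4 were higher and 1 lower, with 2 higher without NG replicate 1. *Tyk2*, a receptor-associated kinase, had 63.7, 64.2 and 74.5 CPM in NG, 110, 108 and 108 in HG, and 81.7, 90.5 and 83.4 in HG+CD200Fc. Every HG+CD200Fc library lay above NG and below HG, with a log2 fold change from NG of 0.34 ± 0.067 (adjusted p = 0.000799). *Uba7*, which activates the ubiquitin-like protein Isg15, had 48.1, 48.0 and 49.6 CPM in NG, 99.8, 102 and 99.1 in HG, and 61.2, 58.1 and 71.5 in HG+CD200Fc (0.39 ± 0.071, adjusted p = 0.000375). *Irf2* (0.28) and the ubiquitin ligase *Trim25* (0.24) were also higher and kept their calls in each of the 22 alternatives tried. *Stat2* stood at 0.28 ± 0.075 (adjusted p = 0.00897), a call lost without NG replicate 1, without HG+CD200Fc replicate 1 and with the length trend removed. The member that was lower is the interferon gamma receptor chain *Ifngr1* (-0.34), a call lost without NG replicate 1. The fourth higher factor is *Stat3* (0.18), a call lost without any filter, with the length trend removed, without HG+CD200Fc replicate 3 and without each NG replicate. Among the effectors, the 4 higher genes were *Uba7*, *Trim25*, *Adar* and *Oas2*, the last named after its values were seen, and the 3 lower were *Ifi44l*, *Ifi27* and *Trim30a*. The call for *Oas2* (0.17, adjusted p = 0.0449) was lost in 13 of 22 alternatives, including each NG and HG+CD200Fc library left out, and that for *Adar* with the length trend removed. With any 1 library left out 0 to 6 effectors were lower, 0 without NG replicate 1, 1 without NG replicate 3 or HG+CD200Fc replicate 2, 5 without HG replicate 1, and 6 without HG+CD200Fc replicate 1 or NG+CD200Fc replicate 3.

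Single genes of antigen presentation stood on both sides of NG, in counts to be read beside 9.56% higher and 10.8% lower of all genes. *Cd74*, which encodes the class II invariant chain, had 18.5, 20.1 and 17.7 CPM in NG, 50.1, 54.2 and 57.2 in HG, and 31.4, 28.6 and 31.8 in HG+CD200Fc. The 3 groups did not overlap, and HG+CD200Fc lay between the others, 0.70 ± 0.084 above NG on the log2 scale (adjusted p = 1.31e-05) and below HG by a log2 fold change of -0.81 (adjusted p = 3.35e-08), both from edgeR's quasi-likelihood test. Of 8 tested class II and costimulation genes it was the 1 higher, and the 1 lower was *H2-DMb1*, which helps load peptide, at -0.50 (adjusted p = 0.0499). That call was lost in 13 of 22 alternatives, including DESeq2 size factors, upper quartile scaling, no filter, the length trend removed and each NG and HG+CD200Fc library left out. The class I list had 1 of 20 genes higher and 5 lower, 3 lower without HG+CD200Fc replicate 2, beside 14 higher and 0 lower in HG vs NG. Its higher member is *Nlrc5*, the transcriptional activator of class I genes, at 43.6, 51.2 and 48.2 CPM in NG and 56.7, 62.1 and 63.0 in HG+CD200Fc (0.34 ± 0.070, adjusted p = 0.00093). *B2m*, the class I light chain, went the other way, with 439, 411 and 444 CPM in NG, 568, 546 and 509 in HG, and 374, 334 and 321 in HG+CD200Fc. The HG+CD200Fc libraries lay below both other groups (-0.33 ± 0.060 from NG, adjusted p = 0.000351), a call lost with the length trend removed. Immunoproteasome genes *Psmb8* (-0.33), *Psmb10* (-0.34) and *Psme2* (-0.41) were lower as well, the call for *Psmb10* being lost without NG replicate 1 or 3 or HG+CD200Fc replicate 1 or 2, and that for *Psme2* without HG+CD200Fc replicate 2.

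Complement and Fc receptor lists also had single genes on both sides of NG, again beside 9.56% higher and 10.8% lower of all genes. *C3*, the central complement component (ENSMUSG00000024164, chromosome 17, 57203970 to 57228136), had 204, 228 and 225 CPM in NG, 421, 411 and 411 in HG, and 264, 277 and 266 in HG+CD200Fc. It was the 1 higher gene of 17 in the complement list, 0.30 ± 0.052 above NG (adjusted p = 0.000263), and stayed below every HG library. The 3 lower genes were *C1qc*, *C1qa* and *Cfp*, of which *C1qc*, a chain of the recognition molecule C1q, had 58.2, 55.0 and 54.8 CPM in NG, 81.2, 67.4 and 68.5 in HG, and 35.7, 40.4 and 38.6 in HG+CD200Fc (-0.55 ± 0.088, adjusted p = 0.000153). All 3 genes were higher in HG than in NG, so their HG+CD200Fc levels lay on the far side of the baseline. In the Fc receptor list 2 of 11 genes were higher and 4 lower, 2 lower without HG+CD200Fc replicate 3. *Syk*, the kinase downstream of activating receptors, had 353, 377 and 373 CPM in NG, 527, 528 and 549 in HG, and 468, 478 and 453 in HG+CD200Fc (0.34 ± 0.050, adjusted p = 5.71e-05). The receptor genes *Fcgr2b* (-0.32), *Fcgr3* (-0.29) and *Fcgr4* (-0.30) and the shared signalling chain *Fcer1g* (-0.33) were lower. The call for *Fcgr2b* was lost without NG replicate 2 or HG+CD200Fc replicate 3, that for *Fcgr3* without NG replicate 1 or HG+CD200Fc replicate 2 or 3, and that for *Fcgr4* with the length trend removed.

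NF-kB and Toll signalling genes that passed were mostly above NG. Of 28 genes 9 were higher and 1 lower, beside 9.56% and 10.8% of all genes, and 7 to 10 were higher with any 1 library left out. *Bcl3*, an atypical IkB protein that acts in the nucleus, had 40.6, 44.9 and 43.1 CPM in NG, 58.5, 60.1 and 61.6 in HG, and 58.9, 67.2 and 70.0 in HG+CD200Fc (0.61 ± 0.080, adjusted p = 2.78e-05). Its HG and HG+CD200Fc libraries overlapped, and their log2 difference of 0.12 did not pass (adjusted p = 0.338). *Ikbke*, a kinase upstream of interferon and NF-kB genes, had 142, 167 and 155 CPM in NG, 277, 315 and 287 in HG, and 191, 217 and 208 in HG+CD200Fc, between the other groups without overlap (0.41 ± 0.064, adjusted p = 0.000108). The subunits *Nfkb1* (0.37), *Nfkb2* (0.32) and *Rela* (0.27) and the inhibitor *Tnip1* (0.38) were higher. With the length trend removed 6 of the list were higher and 2 lower, and the call for *Rela* was lost, as it was without HG+CD200Fc replicate 2.

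Among the inflammatory effectors, *Nos2* and *Mmp9* stood above NG and *Acod1* overlapped it. *Nos2*, inducible nitric oxide synthase (ENSMUSG00000020826, chromosome 11, 78920787 to 78960254), had 62.7, 65.2 and 76.9 CPM in NG, 236, 181 and 202 in HG, and 99.8, 101 and 103 in HG+CD200Fc. The groups did not overlap, and the log2 fold change from NG was 0.57 ± 0.102 (adjusted p = 0.00137), beside 1.60 in HG vs NG. *Acod1*, which makes itaconate, stood at 32.4, 27.1 and 29.1 CPM in HG+CD200Fc, overlapping the 27.6, 28.2 and 28.5 of NG (0.08 ± 0.096, interval -0.12 to 0.27), after 89.8, 72.2 and 75.6 in HG. *Mmp9*, a gelatinase, had 19.5, 21.5 and 19.6 CPM in NG, 63.0, 55.5 and 60.5 in HG, and 25.2, 28.4 and 26.4 in HG+CD200Fc (0.40 ± 0.081, adjusted p = 0.00107). The inflammasome genes *Casp1* (-0.35) and *Pycard* (-0.32) were lower, the call for *Pycard* being lost with upper quartile scaling, with the length trend removed, without NG replicate 1 or 2 and without each HG+CD200Fc replicate. They belong to a list with 1 of 21 genes higher, *Nos2*, and 5 lower, 2 lower without NG replicate 1 and 3 without HG+CD200Fc replicate 1, 2 or 3.

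In the cytokine and chemokine list 9 of 26 genes were lower and 1 higher, with 7 to 10 lower when any 1 library was left out and 6 lower with the length trend removed. *Ccl2*, a monocyte attractant, had 74.2, 64.5 and 69.7 CPM in NG, 73.6, 64.1 and 65.7 in HG, and 51.0, 51.3 and 51.0 in HG+CD200Fc. NG and HG overlapped, and all HG+CD200Fc libraries lay below them (-0.44 ± 0.066, adjusted p = 6.42e-05). *Ccl12*, a related attractant, had 10.8, 11.1 and 11.2 CPM in NG, 9.44, 8.14 and 8.12 in HG, and 6.43, 6.18 and 6.92 in HG+CD200Fc (-0.76 ± 0.125, adjusted p = 0.000141). *Il1rn*, the interleukin-1 receptor antagonist, was lower by a similar amount as *Ccl2* (-0.40 ± 0.064). *Il1a* was at 0.890, 1.17 and 0.569 CPM in NG, 2.74, 2.46 and 2.68 in HG, and 0.598, 0.0966 and 0.183 in HG+CD200Fc. Its groups overlap at these low levels, and its call against NG (-1.49 ± 0.469, adjusted p = 0.0242) was lost with DESeq2, without HG+CD200Fc replicate 2 or 3 and without NG replicate 1 or 2. The exception that was higher is *Tgfb1*, an anti-inflammatory cytokine (ENSMUSG00000002603, chromosome 7, 25687002 to 25705077), with 263, 276 and 264 CPM in NG, 281, 300 and 296 in HG, and 340, 402 and 394 in HG+CD200Fc. Each HG+CD200Fc library lay above the other 6 (0.50 ± 0.067 from NG, adjusted p = 4.18e-05), while HG vs NG did not pass (0.13, adjusted p = 0.18).

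Receptors for cytokines and for debris departed from NG in both directions. *Il13ra2*, a decoy receptor for interleukin-13 (ENSMUSG00000031289, chromosome X, 147383476 to 147429192), had 2.75, 1.80 and 2.44 CPM in NG, 0.855, 0.530 and 0.473 in HG, and 1.16, 0.869 and 0.458 in HG+CD200Fc. HG and HG+CD200Fc overlapped each other and lay below NG, with a log2 fold change from NG of -1.47 ± 0.337 (adjusted p = 0.00281), a call kept in all 22 alternatives. *Il6ra*, the interleukin-6 receptor chain, had 47.4, 49.5 and 43.2 CPM in NG, 43.0, 46.4 and 45.9 in HG, and 59.2, 63.4 and 57.8 in HG+CD200Fc (0.36 ± 0.069, adjusted p = 0.000516). The growth factor receptor chain *Csf2ra* (0.44) and the feedback inhibitor *Socs3* (0.37) were higher too, a call that *Socs3* lost with the length trend removed. Of the 17 genes in this list, 5 were higher and 2 lower, but 3 were higher without NG replicate 1 or 3 or without HG+CD200Fc replicate 2. With the length trend removed 2 were higher and 2 lower.

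Of 14 scavenger and engulfment receptors 4 were higher and 4 lower. *Lrp1*, a large receptor for apoptotic cells and lipoproteins (ENSMUSG00000040249, chromosome 10, 127538161 to 127621148), had 3450, 3710 and 3500 CPM in NG, 3890, 4530 and 4400 in HG, and 4980, 6060 and 5770 in HG+CD200Fc. Every HG+CD200Fc library lay above every other one (0.66 ± 0.101 from NG, adjusted p = 0.000978). *Marco*, a collagen-type scavenger receptor, had 285, 266 and 280 CPM in NG, 683, 639 and 665 in HG, and 315, 332 and 300 in HG+CD200Fc, a remainder of 0.19 ± 0.057 (adjusted p = 0.0191). *Stab1* (0.35) and *Scarb1* (0.33) were the other higher members, and *Clec7a* (-0.42), *Cd68* (-0.35), *Msr1* (-0.34) and *Trem2* (-0.28) were lower. The call for *Marco* was lost without HG+CD200Fc replicate 2 and without each NG replicate, and that for *Clec7a* with the length trend removed and without NG replicate 1 or 2 or HG+CD200Fc replicate 2 or 3.

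Genes of disease-associated microglia, a lipid- and lysosome-handling state that depends on Trem2, were mostly below NG. Of 22 tested, 13 were lower and 1 higher (median -0.29), 10 to 15 lower with any 1 library left out, beside 5 lower and 6 higher in HG vs NG. *Tyrobp*, the signalling partner of Trem2, had 367, 336 and 333 CPM in NG, 333, 240 and 251 in HG, and 244, 231 and 252 in HG+CD200Fc (-0.51 ± 0.112, adjusted p = 0.00771), overlapping HG and lying below NG. *Igf1*, a trophic factor, had 139, 132 and 133 CPM in NG, 87.3, 88.8 and 89.7 in HG, and 107, 111 and 105 in HG+CD200Fc, between HG and NG without overlap (-0.32). In the microglial identity list 5 of 18 genes were lower and 1 higher, and the summed level of the list was 3690 to 3810 CPM in HG+CD200Fc and 4080 to 4310 in NG. Of 33 lysosomal genes 19 were lower and 1 higher (median -0.20), with 14 to 22 lower when any 1 library was left out, beside 5 lower and 7 higher in HG vs NG. The cathepsin genes *Ctsk* (-0.35), *Ctsd* (-0.34), *Ctss* (-0.30), *Ctsl* (-0.30) and *Ctsb* (-0.22) were all lower, and the acid glucosidase *Gaa* (0.295) was the 1 higher gene. With the length trend removed 22 lysosomal genes were lower and 0 higher.

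*Txnip* and *Arrdc4*, the glucose-induced targets of the Mlx-binding factors, stood between NG and HG. *Txnip*, which limits glucose uptake (ENSMUSG00000038393, chromosome 3, 96557957 to 96561883), had 111, 96.8 and 97.9 CPM in NG, 193, 179 and 177 in HG, and 128, 125 and 116 in HG+CD200Fc. All HG+CD200Fc libraries lay above NG and below HG, with a log2 fold change of 0.27 ± 0.062 from NG (adjusted p = 0.00262) and -0.57 from HG (adjusted p = 1.23e-07), both from edgeR's quasi-likelihood test. Its relative *Arrdc4*, whose E-box is printed above, had 12.3, 10.1 and 10.8 CPM in NG, 26.5, 23.2 and 21.8 in HG, and 14.9, 16.0 and 13.4 in HG+CD200Fc (0.41 ± 0.117, adjusted p = 0.0126). That call was lost without HG+CD200Fc replicate 2 and without NG replicate 2 or 3. The sensor *Mlxip* was higher in HG+CD200Fc (0.50 ± 0.087) and its partner *Mlx* lower (-0.31 ± 0.079), while neither passed in HG vs NG (adjusted p = 0.11 and 0.0696). In all, 4 of 11 genes were higher and 1 lower, 2 higher without HG+CD200Fc replicate 2 or NG replicate 3, and with the length trend removed 3 were higher and 3 lower (median -0.02).

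Among glycolytic genes more were lower than higher. Of 24 glycolysis and lactate genes 2 were higher and 9 lower, beside 8 higher and 1 lower in HG vs NG. *Tpi1*, triosephosphate isomerase, had 499, 480 and 507 CPM in NG, 586, 481 and 529 in HG, and 424, 400 and 406 in HG+CD200Fc (-0.27 ± 0.060, adjusted p = 0.00203). *Ldha* (-0.22), *Gapdh* (-0.20) and *Aldoa* (-0.20) were lower by less, and each of these 3 calls was lost without NG replicate 1 or 3 or HG+CD200Fc replicate 2. The number of lower genes was 3 without NG replicate 1 or HG+CD200Fc replicate 2, 4 without NG replicate 3 or HG+CD200Fc replicate 3, and 13 with the length trend removed. *Eno2*, the neuronal-type enolase, was 1 of the 2 higher genes, with 52.5, 64.9 and 56.4 CPM in NG, 124, 135 and 134 in HG, and 66.8, 73.3 and 71.5 in HG+CD200Fc (0.28 ± 0.071), a call lost without NG replicate 1 and with the length trend removed. The lactate exporter *Slc16a3* had 13.7, 13.6 and 14.3 CPM in NG, 39.9, 32.3 and 30.8 in HG, and 12.3, 11.4 and 13.7 in HG+CD200Fc, overlapping NG (-0.16 ± 0.108, interval -0.38 to 0.07). Of 21 hypoxia genes 2 were higher and 3 lower, the 3 being lost without NG replicate 1 or HG+CD200Fc replicate 2, beside 10 higher and 1 lower in HG vs NG.

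The direction of a difference went with the length of the gene's exons. Over 14405 genes that averaged 1 CPM or more, the log2 fold change correlated with summed exon length with a Spearman coefficient of 0.316, and with GC content at 0.186. These correlations run over genes, which are no independent replicates, and carry no test. The values for HG vs NG were 0.181 and 0.055. Genes of at most 500 nucleotides numbered 683, of which 11 were higher and 204 lower (median -0.40), and those over 10000 nucleotides numbered 1130, of which 325 were higher and 32 lower (median 0.10). Of 2589 processed pseudogenes, which are short copies of mature messages and can share reads with their parent genes, 303 were lower and 33 higher, and of 918 antisense genes 39 were higher and 1 lower. The share of ribosomal RNA given above also differed between the groups. The part of length or library composition in the results was not tested, and values with the trend on exon length and GC removed are given beside the lists of short genes below.

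**Figure D3:**
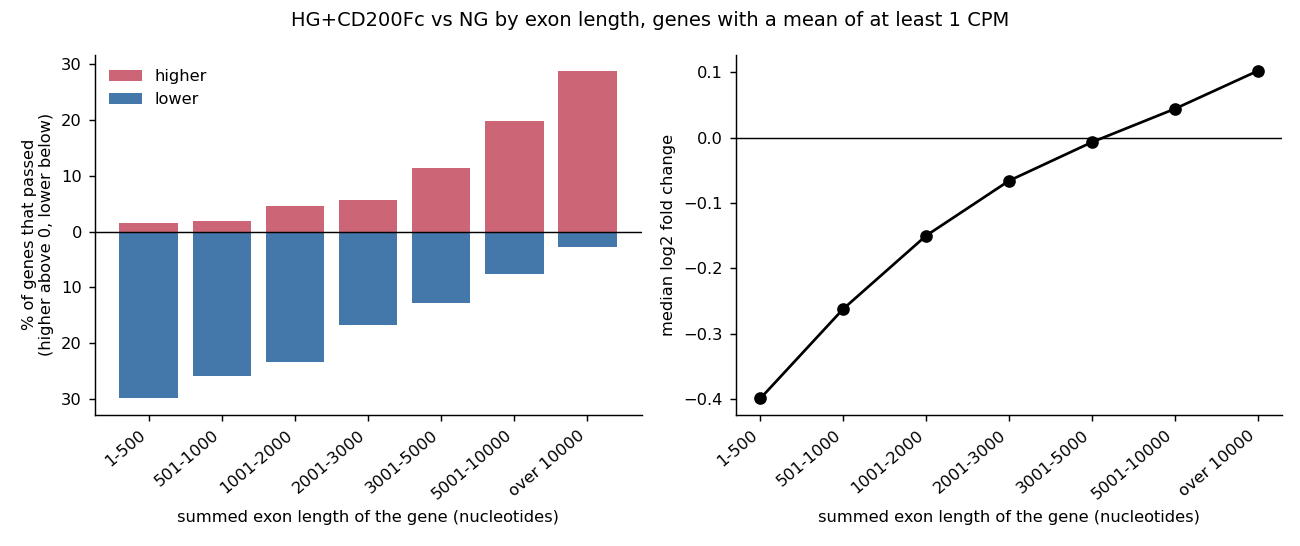
The left panel gives the percentage of genes that were higher (above 0) or lower (below 0) in HG+CD200Fc than in NG in 7 bins of summed exon length in nucleotides, and the right panel the median log2 fold change of each bin, over genes with a mean of at least 1 CPM. The median rises from -0.40 in the shortest bin to 0.10 in the longest.

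Most ribosomal protein and respiratory chain genes were lower than in NG. Of 77 cytosolic ribosomal protein genes 72 were lower and 0 higher, with a median log2 fold change of -0.45, and 58 to 74 were lower with any 1 library left out. *Rpl38*, a small protein of the large subunit, had 253, 225 and 238 CPM in NG, 220, 160 and 172 in HG, and 140, 137 and 155 in HG+CD200Fc (-0.73 ± 0.118, adjusted p = 0.00151). All HG+CD200Fc libraries lay below the other 6. Nuclear genes of the respiratory chain were lower in 62 of 71 and higher in 0 (median -0.43), 47 to 65 lower with any 1 library left out. *Cox7c*, a subunit of cytochrome c oxidase, had 84.5, 73.9 and 79.8 CPM in NG, 67.4, 48.4 and 51.9 in HG, and 46.3, 50.4 and 52.0 in HG+CD200Fc (-0.68 ± 0.109, adjusted p = 0.000571), overlapping HG. With the length trend removed 71 ribosomal protein genes (median -0.38) and 58 respiratory chain genes (median -0.35) were lower. In HG vs NG 42 of each list were lower and 0 higher, and HG+CD200Fc vs HG had 12 ribosomal protein genes and 11 respiratory chain genes lower. Those counts rested on single libraries. In HG vs NG 70 ribosomal protein and 59 respiratory chain genes were lower without HG replicate 1, and 12 and 26 without HG replicate 2. In HG+CD200Fc vs HG the counts were 2 and 2 without HG replicate 1, and 33 and 21 without HG replicate 2. The mean log2 level of the ribosomal protein genes, relative to NG, was -0.07, -0.40 and -0.29 in the 3 HG libraries and -0.37 to -0.45 in HG+CD200Fc. Of 13 mitochondrially encoded genes 6 were lower and 0 higher, led by *mt-Atp6* (-0.61). With any 1 library left out 4 to 9 were lower, and 4 with the length trend removed. Their mean log2 level relative to NG was -0.068, -0.492 and -0.35 in HG+CD200Fc replicates 1, 2 and 3, and -0.119 in NG replicate 2. In the citrate cycle list 8 of 27 genes were lower and 1 higher, with 4 lower without NG replicate 1 or 3 or HG+CD200Fc replicate 2.

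**Figure D4:**
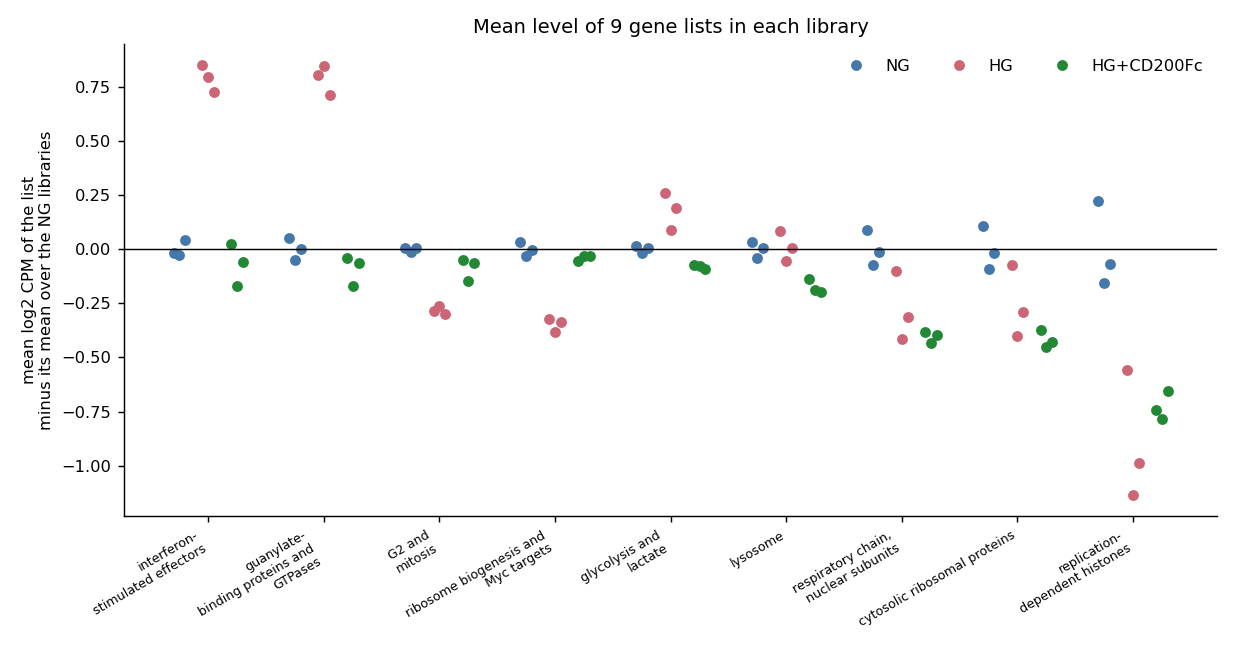
Each point is 1 library's mean log2 CPM over the genes of a list, minus the mean of that quantity in the 3 NG libraries, for 9 lists and the NG, HG and HG+CD200Fc libraries. The HG+CD200Fc points of the interferon effectors lie between -0.17 and 0.02 and those of the histones between -0.785 and -0.66, where NG replicate 1 stands at 0.22.

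Most ribosome biogenesis and cell cycle genes did not pass against NG. Among those that passed more were lower than higher, but upper quartile scaling turned this around in the ribosome biogenesis and S phase lists. Of 35 ribosome biogenesis and Myc target genes 3 were higher and 9 lower (median -0.08), beside 9.56% and 10.8% of all genes. The libraries lay wholly below NG in 16 of 35 and wholly above in 6, beside 19.4% and 17.7% of all genes. The list had 3 higher and 4 lower without NG replicate 1 or HG+CD200Fc replicate 2, and 5 lower without replicate 3. With upper quartile scaling it had 5 higher and 4 lower. Beside these counts stand 31 lower and 0 higher in HG vs NG and 28 higher and 0 lower in HG+CD200Fc vs HG. *Rrs1*, a ribosome assembly factor, had 144, 133 and 129 CPM in NG, 93.1, 89.8 and 103 in HG, and 130, 140 and 137 in HG+CD200Fc, overlapping NG (0.01 ± 0.063, interval -0.12 to 0.14). *Cad*, the multienzyme of pyrimidine synthesis, exceeded it, with 730, 730 and 756 CPM in NG, 561, 597 and 611 in HG, and 881, 1020 and 992 in HG+CD200Fc (0.39 ± 0.061, adjusted p = 0.000109).

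Of 41 S phase genes 3 were higher and 7 lower, and of 42 G2 and mitosis genes 4 were higher and 12 lower, beside 25 and 38 lower and 0 higher in HG vs NG. The HG+CD200Fc libraries lay wholly below NG in 14 S phase and 20 G2 genes, beside 19.4% of all genes. They lay wholly above NG in 6 S phase and 6 G2 genes, beside 17.7% of all genes. *Mcm6*, a subunit of the replicative helicase, had 362, 344 and 344 CPM in NG, 282, 265 and 281 in HG, and 326, 330 and 330 in HG+CD200Fc. Its groups did not overlap, yet the log2 fold change from NG of -0.09 ± 0.049 did not pass (interval -0.19 to 0.01, adjusted p = 0.219). *Cdc20*, an activator of the anaphase-promoting complex, had 168, 174 and 189 CPM in NG, 135, 120 and 137 in HG, and 177, 175 and 188 in HG+CD200Fc, overlapping NG (0.02 ± 0.060, interval -0.10 to 0.14). Members departed from the baseline in both directions. *Pcna*, the replication clamp, had 306, 275 and 294 CPM in NG, 229, 187 and 205 in HG, and 221, 204 and 210 in HG+CD200Fc (-0.46 ± 0.065), at the HG level, and *Cdk1* was lower by a similar amount (-0.40). *Foxm1*, a transcription factor of mitotic genes, had 179, 192 and 192 CPM in NG, 176, 190 and 181 in HG, and 233, 245 and 253 in HG+CD200Fc (0.38 ± 0.064, adjusted p = 0.000183). Counts of both lists moved with single libraries. Without NG replicate 1, 2 S phase and 7 G2 genes were lower. Without HG+CD200Fc replicate 2 those counts were 5 and 5, and with upper quartile scaling the S phase list turned to 6 higher and 4 lower. With the length trend removed it had 1 higher and 13 lower, and the G2 list 3 higher and 14 lower.

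Replication-dependent histone genes, whose messages lack the usual poly(A) tail, were lower in 46 of 53 and higher in 0 (median -0.77), beside a median of -0.90 in HG vs NG and 0.17 in HG+CD200Fc vs HG. *H4c6* had 357, 251 and 258 CPM in NG, 199, 119 and 121 in HG, and 137, 144 and 164 in HG+CD200Fc (-0.96 ± 0.248, adjusted p = 0.0284). NG replicate 1 was the highest library, and the groups did not overlap, but the call was lost without any filter, without NG replicate 1 or 3 and without each HG+CD200Fc replicate. The list's count rested on single libraries, with 21 lower without NG replicate 1, 28 without NG replicate 3, and 24, 17 and 27 without HG+CD200Fc replicate 1, 2 and 3. With the length trend removed 32 were lower (median -0.64). Many of these genes are near-identical copies between which reads can be shared, so single values are uncertain.

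Growth factor and stress genes included several that were higher than in both NG and HG. *Bag3*, a co-chaperone of selective autophagy, had 88.1, 89.6 and 80.5 CPM in NG, 82.6, 92.7 and 80.4 in HG, and 122, 139 and 135 in HG+CD200Fc (0.62 ± 0.103, adjusted p = 0.000852). *Slc7a5*, a transporter of large neutral amino acids, had 229, 234 and 246 CPM in NG, 168, 185 and 184 in HG, and 284, 312 and 303 in HG+CD200Fc (0.34 ± 0.059, adjusted p = 0.000214). *Flt1*, a receptor for vascular endothelial growth factor, had 251, 228 and 240 CPM in NG, 161, 159 and 167 in HG, and 275, 319 and 308 in HG+CD200Fc (0.33 ± 0.062, adjusted p = 0.000548). In all 3 genes the HG+CD200Fc libraries lay above the other 6. *Flt1* and *Vwf* were the 2 of 9 tested endothelial and mural genes that passed. The summed level of that list was 469 to 517 CPM in HG+CD200Fc and 410 to 421 in NG, while its defining genes *Pecam1*, *Cdh5* and *Cldn5* stood at or below 2.98 CPM and *Rgs5* at 0.

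Lists of growth factor and stress genes differed from each other in direction. The integrated stress response and amino acid list had 4 of 30 genes higher and 3 lower, and 2 higher and 4 lower with the length trend removed. The list of angiogenic factors had 5 of 15 higher and 1 lower, and 1 higher and 3 lower with the trend removed. Of 33 chaperone and unfolded protein response genes 3 were higher and 11 lower, but 1 or 2 lower without HG+CD200Fc replicate 2 or 3 or NG replicate 1, 3 lower without NG replicate 3, and 4 lower with upper quartile scaling. Antioxidant genes of the Nrf2 response were lower in 12 of 26 and higher in 0, 5 to 7 lower without NG replicate 1 or 3 or HG+CD200Fc replicate 2 or 3. *Prdx1*, a peroxiredoxin, had 450, 413 and 425 CPM in NG, 417, 358 and 366 in HG, and 338, 281 and 309 in HG+CD200Fc (-0.47 ± 0.081, adjusted p = 0.000582). Of 31 immediate early and ERK feedback genes 5 were higher and 0 lower, 2 higher without HG+CD200Fc replicate 2 or 3 or NG replicate 2 or 3, beside 2 higher and 11 lower in HG vs NG. With the length trend removed 2 of these genes were higher and 2 lower (median -0.02). *Epha2*, an ephrin receptor driven by ERK, had 12.1, 13.4 and 12.9 CPM in NG, 5.92, 6.10 and 4.53 in HG, and 14.8, 15.9 and 16.5 in HG+CD200Fc. It did not pass against NG (0.30 ± 0.135, interval 0.02 to 0.58, adjusted p = 0.122). The list of TGF-beta and bone morphogenetic protein targets had 4 of 21 genes higher and 2 lower (median 0.02). With the length trend removed it had 2 higher and 2 lower. Among these targets, *Id1*, an inhibitor of differentiation factors (ENSMUSG00000042745, chromosome 2, 152736251 to 152737410), had 48.0, 40.2 and 43.3 CPM in NG, 16.5, 13.8 and 15.8 in HG, and 27.9, 30.4 and 28.4 in HG+CD200Fc. The 3 groups did not overlap, and HG+CD200Fc was still below NG (-0.60 ± 0.085, adjusted p = 4.54e-05), beside -1.51 in HG vs NG. *Id2*, its relative, stood at -0.51 from NG and at -0.01 in HG vs NG (adjusted p = 0.958).

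The largest fold changes lay at low counts. *Ovol1*, a zinc finger transcription factor of epithelial cells (ENSMUSG00000024922, chromosome 19, 5549136 to 5560646), had 0.678, 0.430 and 0.487 CPM in NG and 1.05, 1.74 and 3.71 in HG+CD200Fc (2.01 ± 0.435, adjusted p = 0.00169), a call lost with DESeq2. *Rnf32*, a RING finger gene (ENSMUSG00000029130, chromosome 5, 29195992 to 29228457), had 0.805, 1.45 and 1.46 CPM in NG, 2.53, 3.37 and 2.92 in HG, and 2.43, 2.80 and 3.53 in HG+CD200Fc (1.23 ± 0.282, adjusted p = 0.00282). Its HG and HG+CD200Fc libraries overlapped and lay above NG, and the call was kept in all 22 alternatives. *Dmpk*, the myotonic dystrophy protein kinase, showed the largest rise from HG to HG+CD200Fc among the named genes (2.63 on the log2 scale), with 19.3, 16.7 and 13.9 CPM in NG, 3.70, 3.98 and 4.61 in HG, and 21.1, 32.9 and 22 in HG+CD200Fc. Against NG its groups did not overlap, but the log2 fold change of 0.61 ± 0.315 did not pass (interval -0.11 to 1.33, adjusted p = 0.228).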

How the data were processed

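Per the labels' protocols, RNase H served to remove ribosomal RNA, random hexamers primed the libraries, and a NovaSeq gave paired reads of 150 bases. The authors' deposited count table gives raw counts per gene without normalization. The submitters' processing notes name GRCm38, STAR 2.7.9a, featureCounts 2.0.3, Salmon 1.5.2, edgeR and limma. They do not state the annotation release or the strand setting, so antisense and overlapping genes are uncertain. A second table deposited by the authors gives log2 fold changes and p-values (p_value and false discovery rate), used for the comparison of calls alone.

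Of 55774 lines, 287 identical repeats were dropped, and 99.5% of the 55487 gene IDs were in GENCODE M21 (GRCm38), the source of lengths, GC and coordinates. edgeR's filterByExpr kept 19182 genes. Libraries were scaled by TMM, and 1 quasi-likelihood model of the 4 group means (edgeR 4.0.16, robust, R 4.3.3, biological coefficient of variation 0.0908) was fitted to all 12 libraries, whose totals were 2.15e+07 to 3.19e+07. Adjusted p-values are Benjamini-Hochberg over all genes tested. Errors are the model's standard errors, and intervals are 95%. Reads carry no molecular identifiers. The code of the fit was tried on simulated counts with known folds and a common spread for all genes. Those counts held no length trend and no outlying library, so they say nothing about either in these data.

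The 49 gene lists (1195 of 1197 names matched, 1055 genes tested), the groups compared and the named genes were chosen with earlier results of these data known. The rule named 12 genes at each end of the fold changes that passed, averaged 1 CPM or more and had groups without overlap, the 10 smallest p at 2-fold or more, up to 6 genes of each list by p, the 8 highest and 8 lowest for HG+CD200Fc vs HG, and *Cd200r1*, *Cd200*, *Txnip*, *Arrdc4*, *Cd74*, *Irf7*, *C3* and *Nos2*, leaving out predicted genes and pseudogenes from the extremes. Cell type markers came from their own list. Outside the rule, *Abca1*, *Acod1*, *Aldoa*, *Bax*, *Bbc3*, *Cdc20*, *Clec7a*, *Cox7c*, *Ctsb*, *Ctss*, *Gaa*, *Gapdh*, *Gbp9*, *H4c6*, *Ifit3*, *Ldha*, *Marco*, *Mcm6*, *Oas2*, *Oasl2*, *Pirb*, *Rela*, *Rpl38*, *Rrs1* and *Slc16a3* were chosen after their values were seen. Alternatives were DESeq2 size factors, upper quartile scaling, no filter, DESeq2 1.42.0, limma voom (limma 3.58.1), a stricter filter (3 libraries with 1 CPM and 10 counts), a replicate block, removal of a trend on exon length and GC, block and trend together, only the 2 groups compared, and leaving out each library. A few genes are not reported here.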

Additional observations from a re-analysis of the deposited data

How the results depend on the processing

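Over 22 alternatives the count of genes differing between HG+CD200Fc and NG, 3903, lay between 3238 and 4894 when another scaling, filter, tool or sample set was used. With 1 library left out it lay between 2217 and 4217, the higher genes between 1068 and 1882 and the lower genes between 1149 and 2404. It was 2217 without NG replicate 1 (1068 higher, 1149 lower) and 2349 without HG+CD200Fc replicate 2 (1155 higher, 1194 lower), and 1375 were lower without HG+CD200Fc replicate 3. With the length and GC trend removed 1205 were higher, and the cause was not tested. DESeq2 gave 4216 genes and limma voom 4894. The median of all genes moved by at most 0.05 on the log2 scale under any scaling. For HG vs NG (4720) and for HG+CD200Fc vs HG (3408) the totals stayed within 1.5 times, though in HG vs NG 1447 were higher without NG replicate 1, beside 2244, and 3808 lower with block and trend removed, beside 2476. Replicate numbers were checked as pairs: deviations of same-numbered HG+CD200Fc and NG libraries correlated at 0.148, 0.17 and 0.045, the last below the 0.1 required of each pair, and all but NG replicate 3 correlated best with their own number. With a replicate block 4440 genes passed (2062 higher, 2378 lower), and 3947 with the block and the trend removed together. Of the 316 genes that the rule named, 233 passed and 124 of these kept their call in every alternative. The sign of *Junb* (-0.0207 with the trend removed, -0.0207 with the block as well) and of *mt-Nd4l* (0.0034 and 0.0012) reversed. Depth limits the low genes: below 1 CPM, as for *Il1a*, calls came and went with single libraries.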

Other observations

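Inhibitory receptors of myeloid cells, lipid synthesis and apoptosis genes give further values of the same comparison. *Pirb*, an inhibitory receptor for MHC class I, averaged 6.59 ± 0.512 CPM in NG, 24.0 ± 2.16 in HG and 7.48 ± 0.821 in HG+CD200Fc (SD, n = 3), and its log2 fold change from NG was 0.19 ± 0.129 (SE), with a 95% interval of -0.08 to 0.45. Of 17 inhibitory receptor genes 1, *Sirpa* (0.28), was higher and 4 were lower, 2 lower without NG replicate 1 or HG+CD200Fc replicate 3. The lower members are *Pilra* (-0.43), *Clec12a* (-0.32), *Lilr4b* (-0.31) and *Cd33* (-0.19). Without HG+CD200Fc replicate 3 the calls for *Pilra*, *Clec12a* and *Cd33* were lost, and without NG replicate 1 those for *Clec12a* and *Cd33*, the last also without NG replicate 3 or HG+CD200Fc replicate 2 and with 2 other scalings. Of 30 cholesterol and fatty acid synthesis genes 4 were higher and 3 lower. The higher members included *Fasn*, fatty acid synthase (0.36), and its regulators *Srebf1* (0.29) and *Srebf2* (0.26), and 0 of the list were higher with the length trend removed. *Abca1*, the cholesterol exporter, stood at 195 ± 7.57 CPM in NG, 291 ± 9.77 in HG and 200 ± 3.77 in HG+CD200Fc, 0.04 ± 0.054 from NG on the log2 scale (interval -0.08 to 0.15). Of 24 p53 and apoptosis genes 3 were higher and 6 lower, 2 lower without HG+CD200Fc replicate 3 and 3 without NG replicate 1 or 3. The higher ones are *Zmat3* (0.33), *Bcl2l11* (0.32) and *Bbc3* (0.24), and *Ccng1* (-0.31), *Bax* (-0.25) and *Casp8* (-0.25) are among the lower. The call for *Bbc3* was lost in 13 of 22 alternatives, that for *Bax* without NG replicate 1 or 3 or HG+CD200Fc replicate 1 or 2, and that for *Casp8* without NG replicate 1 or HG+CD200Fc replicate 3. Of 8 osmotic stress genes 1, the taurine transporter *Slc6a6* (0.18), was higher and 0 were lower, with a list median of 0.13, and that call was lost without NG replicate 1 or HG+CD200Fc replicate 2.

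Some nuclear and small RNAs differed from NG, at shares to be read beside 9.56% higher and 10.8% lower of all genes. *Malat1*, a nuclear long RNA, stood at 4664 ± 299 CPM in NG, 8271 ± 752 in HG and 5576 ± 139 in HG+CD200Fc, a log2 fold change from NG of 0.26 ± 0.057 (edgeR quasi-likelihood test, adjusted p = 0.00194). *Neat1* did not pass (0.43 ± 0.137, adjusted p = 0.0565), and of 9 tested nuclear RNA and RNA quality genes *Malat1* was the 1 higher and *Gas5* (-0.39) the 1 lower. Among small Cajal body RNAs 5 of 13 were lower and 1 higher, and among small nucleolar RNAs 7 of 103 were lower and 0 higher. Such calls can rest on single libraries. In the fits with 1 library left out, *Scarna6* lost its call in 8, *Scarna13* in 7 and *Snord15a* in 1. Transcripts inside introns were higher in 13 of 147 and lower in 0. The share of lower small nucleolar RNAs and that of higher intronic transcripts did not exceed the shares of all genes.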
